A study of Homo sapiens with 3 samples.

Results

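The ETS transcription factors of epithelial cells were followed across 3 conditions of the HCC1937 human breast cancer cell line. In all, 9 genes were chosen by name. They were the epithelial factors ELF3, ELF5, EHF and SPDEF and the further family members ELF1, ETS1, ETS2, ERF and ETV4. The platform annotation assigned 12 probes to these 9 genes, of 47315 probes on the array and 20043 named genes, and ELF5, ETS1 and ETV4 had 2 probes each. The cells, grown in DMEM supplemented with 3 mM glucose and with 0.5 mM glutamine, received 200 nM dexamethasone plus 1 µM retinoic acid, 200 nM dexamethasone alone, or no agent, with 16 h of exposure for both treatments. Dexamethasone is a synthetic glucocorticoid that activates the glucocorticoid receptor, and retinoic acid activates the retinoic acid receptors. Total RNA from each condition was hybridised to 1 Illumina bead array, with no replicate. No p-value is given, therefore, and the standard error (SE) beside each value covers the spread between the beads of a probe within an array.

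ETS proteins bind DNA through a conserved domain that recognises a GGAA core. In the mammary gland ELF5 acts downstream of the prolactin receptor in alveolar differentiation, and SPDEF is linked to luminal and secretory cells. ELF3 and EHF belong with ELF5 to the epithelium-specific branch of the family. ETS1, ETS2, ETV4 and the repressor ERF are regulated by ERK kinase signalling, and ELF1 is expressed in many tissues.

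The promoters of the 5 genes that differed by at least 2-fold on their brightest probe in any comparison are shown, since the results turn on these genes. They are RefSeq sequences of the GRCh38.p14 assembly, from 250 bases before to 50 bases after the first listed start of each gene. They are written 5′ to 3′ on the gene's strand, and any other start of a gene was not examined. Capitals mark the GGAA core on either strand (TTCC on the other strand).
ELF3, chr1:202010337-202010636, plus strand: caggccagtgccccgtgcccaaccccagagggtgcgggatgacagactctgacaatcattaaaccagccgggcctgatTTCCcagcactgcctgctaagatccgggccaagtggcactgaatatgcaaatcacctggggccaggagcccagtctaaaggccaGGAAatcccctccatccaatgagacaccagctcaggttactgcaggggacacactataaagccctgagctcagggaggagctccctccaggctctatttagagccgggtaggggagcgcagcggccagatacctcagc
ELF5, chr11:34511675-34511974, minus strand: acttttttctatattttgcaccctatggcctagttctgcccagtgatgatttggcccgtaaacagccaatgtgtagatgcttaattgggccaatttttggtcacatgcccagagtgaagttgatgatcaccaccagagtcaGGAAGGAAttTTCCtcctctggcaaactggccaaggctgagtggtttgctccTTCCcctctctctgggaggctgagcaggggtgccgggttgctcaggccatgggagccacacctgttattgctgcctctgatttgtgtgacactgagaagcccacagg
EHF, chr11:34624007-34624306, plus strand: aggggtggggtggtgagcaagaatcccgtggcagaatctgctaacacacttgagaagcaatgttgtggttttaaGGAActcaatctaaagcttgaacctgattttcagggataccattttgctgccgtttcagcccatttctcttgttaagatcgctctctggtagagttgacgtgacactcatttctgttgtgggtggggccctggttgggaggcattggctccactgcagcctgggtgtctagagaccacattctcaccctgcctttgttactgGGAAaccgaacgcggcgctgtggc
SPDEF, chr6:34556280-34556579, minus strand: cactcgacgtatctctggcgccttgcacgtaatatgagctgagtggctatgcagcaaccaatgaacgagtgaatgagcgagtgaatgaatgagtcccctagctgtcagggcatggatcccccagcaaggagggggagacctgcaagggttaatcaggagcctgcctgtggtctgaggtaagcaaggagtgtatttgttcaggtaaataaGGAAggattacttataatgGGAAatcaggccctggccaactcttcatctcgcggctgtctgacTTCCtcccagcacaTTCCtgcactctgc
ETS2, chr21:38804933-38805232, plus strand: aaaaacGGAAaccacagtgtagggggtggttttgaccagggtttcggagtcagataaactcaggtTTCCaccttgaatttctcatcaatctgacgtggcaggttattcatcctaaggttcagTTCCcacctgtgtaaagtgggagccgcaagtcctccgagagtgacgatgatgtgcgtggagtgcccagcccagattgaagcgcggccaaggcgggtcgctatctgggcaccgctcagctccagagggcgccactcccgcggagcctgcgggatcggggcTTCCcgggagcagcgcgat

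Entries were found for 7 of the 9 genes, and none was matched for ETS1 and ETV4. The core GGAA occurred 2 times in the ELF3 promoter, 2 times in that of EHF and 4 times each in those of ELF5, SPDEF and ETS2, and 95.5% of the 35116 promoters of this length hold it, with a median of 3 matches. In the ELF5 promoter 3 of the 4 cores lay close together, at -109, -105 and -99 from the start. The longer ETS consensus CCGGAAGT, which contains that core, was in none of the 7 windows and in 4.14% of all promoters. The glucocorticoid half-site AGAACA (14.8% of all promoters) and the retinoid half-site AGGTCA (13.8%) were not in these 7 windows on either strand. The retinoid half-site variant GGTTCA (8.62%) occurred 1 time each in the EHF and ETS2 promoters. A TATAAA box (11.5%) was found in the ELF3 promoter, at -34. These are matches of letters in a short window at the first listed start and carry no measurement of binding.

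Levels are log2 values after background correction and quantile normalization, and the words higher and lower in counts stand for a difference of at least 1 on that scale, a 2-fold difference. A probe was detected where its detection p-value against the negative controls of the array was under 0.01. Of the 9 genes, 8 were detected on all 3 arrays, and ETV4 was not detected on the untreated array. Every member counted as measured in all 3 comparisons, which needed detection on 1 of the 2 arrays. Levels of different probes are not compared, because probes differ in brightness. Median unscaled intensities were 159.0, 149.3 and 131.6 on the combination, dexamethasone and untreated arrays, so part of any unscaled difference is array brightness. By the array identifiers of the labels, slide 1 carried the combination and untreated arrays and slide 2 the dexamethasone array. Slide and treatment therefore cannot be told apart wherever the dexamethasone array enters a comparison. The treatments were visible in known targets. The glucocorticoid-induced genes FKBP5, TSC22D3 and SGK1 exceeded their untreated levels under both treatments, by log2 differences from 2.82 to 5.43. The retinoic acid-degrading enzyme gene CYP26A1 and the retinaldehyde reductase gene DHRS3 were detected on the combination array and on neither other array.

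The labels give the subtype of the line as basal. The basal keratin gene KRT14 was not detected on any array and KRT5 was detected on the dexamethasone array alone, whereas CDH3 and EGFR were detected on all 3. The basal cadherin gene CDH3 differed by -1.73 between the combination and untreated and by -1.38 between the combination and dexamethasone. KRT5 differed by 2.91 between dexamethasone and untreated and by -2.89 between the combination and dexamethasone, both bounds against an undetected value. EGFR stayed inside 2-fold. The median of the 3 measured basal markers was 0.74 with dexamethasone against untreated and -1.38 between the treatments. For the 2 measured with the combination against untreated it was -0.48. Epithelial markers were detected in full, 5 of 5 on each array, and 6 of 7 luminal markers were detected on each, ESR1, GATA3 and TFF1 among them. HCC1937 is usually described as estrogen receptor-negative, and the identity of the cells was not checked here. Every value given, the luminal, ELF5 and SPDEF values included, is therefore of cells known by their label alone. The endothelial markers PECAM1, VWF, KDR and TEK were not detected on any array. Of 6 mesenchymal markers VIM was detected on all 3 arrays, COL1A1 on the dexamethasone and untreated arrays and DCN on the dexamethasone array. Of 5 named immune markers CD68 was detected on all 3, LYZ on the dexamethasone and untreated arrays and CD14 on the combination array, while PTPRC and CD3E were not detected. With the combination against untreated CD14 was at least 2.33-fold higher, CD68 2.03-fold lower and COL1A1 at least 2.21-fold lower. The CD68 value lay at the limit of the rule, and another CD68 probe differed by -0.08 there. Each sample is a bulk extract, in which fewer cells of a type and less RNA per cell cannot be told apart.

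Between the combination and dexamethasone arrays, which lie on different slides, the epithelial factors differed in both directions. ELF3 was 5.13-fold higher, while ELF5 was 5.19-fold, EHF 3.27-fold and SPDEF 2.37-fold lower. Among the further members, ETS2 was 3.00-fold lower. Of the 9 genes, 1 was higher (2.99% of all 10734 measured genes) and 4 were lower (3.58% of all), where 6.57% of all genes passed in either direction. The median log2 difference of the 9 was -0.9996, against -0.01 over all measured genes. Against the untreated array, the combination gave 1 higher gene, ELF3 (5.84% of all 10705 measured genes), and 2 lower, ELF5 and SPDEF (5.43% of all, 11.3% in either direction). The median of the 9 was 0.15, against -0.01 over all genes. Dexamethasone alone gave 2 higher genes, ETS2 and EHF (5.73% of all 10852), and 0 lower (4.57% of all, 10.3% in either direction), with a median of 0.82 against 0.00 over all genes. The 3 comparisons share arrays in pairs and are not independent of each other.

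**Figure D1:**
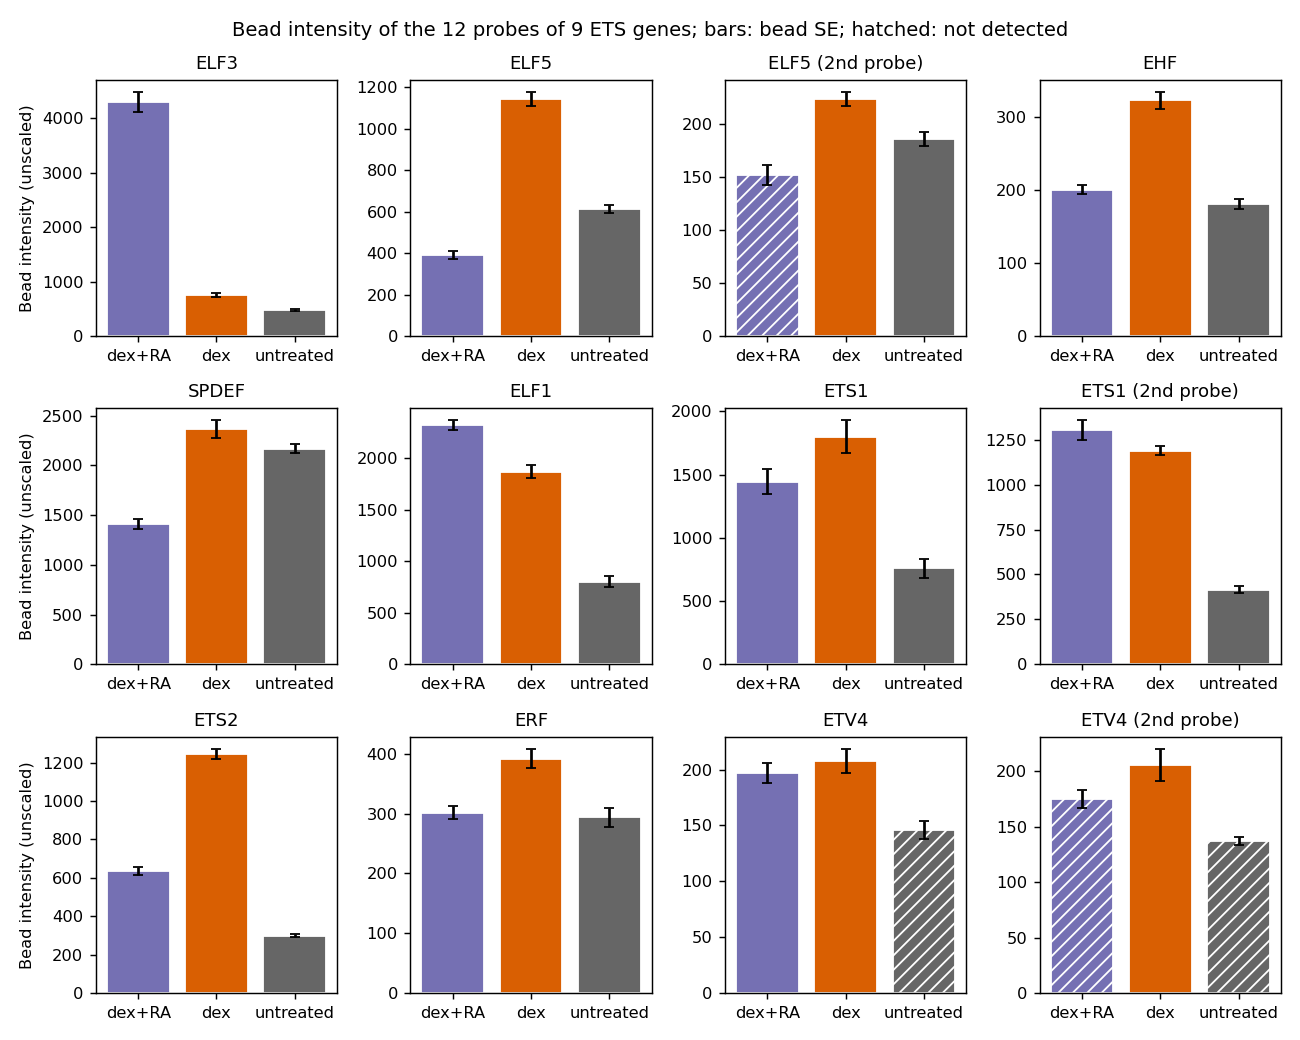
Unscaled bead intensity (y axis, linear from 0) of each of the 12 probes on the dexamethasone + retinoic acid (dex+RA), dexamethasone (dex) and untreated arrays, with the bead SE as error bars and hatching where the probe was not detected. ELF3 stands out on the combination array at 4299, and ETS2 is brightest on the dexamethasone array at 1244.

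ELF3, a factor of epithelial differentiation also known as ESE-1, had an unscaled intensity of 4299 ± 189 on the combination array, 749 ± 36.4 on the dexamethasone array and 482 ± 19.5 on the untreated array (bead SE). Its normalized log2 levels were 11.68, 9.32 and 9.05 in the same order. The combination array thus stood apart from the other two, which differed by 0.27 (bead SE 0.11). The combination was higher than dexamethasone by 2.36 (bead SE 0.11) and higher than untreated by 2.63 (bead SE 0.10), a 6.19-fold difference seen within slide 1. Against dexamethasone, 0.242% of measured genes were at least as much higher. Under the 7 processing alternatives that difference lay between 2.16 and 2.45.

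ELF5 moved the other way. Its brighter probe had intensities of 391 ± 17.5 on the combination array, 1144 ± 33.5 on the dexamethasone array and 614 ± 19.9 on the untreated array. The log2 levels were 7.67 with the combination, 10.04 with dexamethasone and 9.48 in untreated cells. The combination array was the lowest of the 3, with a difference of -2.38 against dexamethasone (bead SE 0.11) and of -1.82 against untreated (bead SE 0.11), 3.52-fold within slide 1. Dexamethasone was higher than untreated by 0.56 (bead SE 0.07), inside the 2-fold limit. The other ELF5 probe, annotated to a different transcript, was dimmer, with intensities of 152 ± 9.14, 224 ± 6.65 and 186 ± 6.47 on the combination, dexamethasone and untreated arrays. It was not detected on the combination array, where it was at least 2.05-fold lower than with dexamethasone and at least 2.19-fold lower than in untreated cells. Between dexamethasone and untreated this probe differed by -0.09 (bead SE 0.15), so the small difference of the brighter probe was not seen on it.

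EHF, also called ESE-3, is the next protein-coding gene after ELF5 on chromosome 11 in the RefSeq gene order. Its intensities were 201 ± 6.78 on the combination array, 324 ± 11.5 on the dexamethasone array and 181 ± 6.49 on the untreated array, close to background. The log2 levels were 5.94, 7.65 and 6.65 in that order. EHF was highest with dexamethasone, where it was 2.001-fold higher than untreated (bead SE 0.15 on the log2 scale), a value at the limit of the rule. The combination differed from dexamethasone by -1.71 (bead SE 0.16). Against untreated the combination differed by -0.71 (bead SE 0.18), and this sign was kept under all 7 alternatives, which scale between arrays, although the unscaled intensity of the combination was the brighter of the pair. Of the alternatives, 4 brought the dexamethasone difference under 2-fold (lowest 0.50), and 2 did so for the combination against dexamethasone (-0.76 and -0.83). Both neighbours were lower with the combination than with dexamethasone alone, and higher with dexamethasone than untreated by the brighter ELF5 probe. The genes flanking the pair, CAT and APIP, differed by -0.92 and -0.73 between the combination and dexamethasone and by 0.98 and 0.27 between dexamethasone and untreated, all inside 2-fold, so CAT was brightest with dexamethasone as well.

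SPDEF, the luminal and goblet cell factor, was lowest on the combination array. Its intensities were 1414 ± 49.7 with the combination, 2363 ± 90.0 with dexamethasone and 2169 ± 47.7 in untreated cells. The log2 levels of 9.94, 11.19 and 11.43 gave a difference of -1.25 (bead SE 0.08) against dexamethasone and of -1.48 (bead SE 0.07) against untreated. Dexamethasone and untreated differed by -0.24 (bead SE 0.07), which lay inside 2-fold and had the opposite sign before scaling. Luminal markers moved as well. Of 6 measured, 0 were higher and 4 lower with the combination (median log2 difference -1.01 against untreated), with ESR1 at -1.015 and GATA3 at -1.004 at the limit of the rule, so that 2 remained lower under 4 of the 7 alternatives, and 0 were higher and 5 lower with dexamethasone alone (median -1.53), where SPDEF was inside 2-fold. Between the combination and dexamethasone 0 were higher and 1 was lower (median 0.15), the receptor kinase gene ERBB3 at -1.51, though its other probe differed by -0.19. Of all measured genes, 5.43% were lower with the combination and 4.57% with dexamethasone than untreated, and 3.58% between the treatments. The summed unscaled intensity of the 6 detected markers was 16782 on the combination array, 12936 on the dexamethasone array and 26162 on the untreated array. TFF1 alone made up 6718, 6694 and 17170 of these, and without it the sums were 10064, 6242 and 8992. These sums include array brightness, with median intensities of 159.0, 149.3 and 131.6 in the same order. The part of the luminal markers in the SPDEF and ELF5 differences was not tested.

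**Figure D2:**
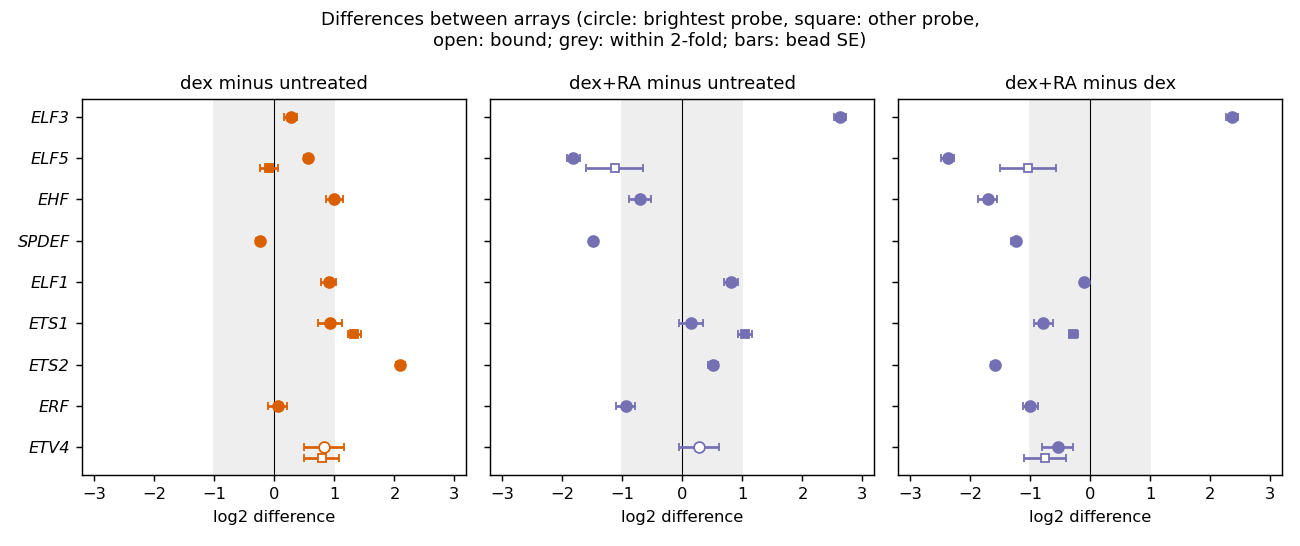
Log2 difference (x axis) of each ETS gene in the 3 comparisons, with the bead SE as error bars. Circles are the brightest probe of a gene, squares its other probe, open symbols mark differences against an undetected value, and grey marks the range within 2-fold. ELF3 lies at 2.63 and 2.36 in both comparisons that contain retinoic acid, with ELF5 at -1.82 and -2.38.

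ETS2, an ERK-regulated activator, was the member with the largest difference after dexamethasone alone. Its intensities were 635 ± 19.3 on the combination array, 1244 ± 27.5 on the dexamethasone array and 298 ± 8.45 on the untreated array. The log2 levels were 8.60, 10.18 and 8.08, so that dexamethasone stood above both other arrays. ETS2 was 4.27-fold higher with dexamethasone than untreated (2.10, bead SE 0.07), and 1.20% of measured genes were at least as much higher. The combination differed from dexamethasone by -1.58 (bead SE 0.07) and from untreated by 0.51 (bead SE 0.08), within 2-fold. Over the alternatives the dexamethasone difference ranged from 1.68 to 2.10.

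ETS1, the founding member of the family, was read by a pair of bright probes that gave unequal values. The brightest probe had intensities of 1444 ± 101 with the combination, 1800 ± 128 with dexamethasone and 760 ± 74.6 in untreated cells. The other had 1303 ± 53.9, 1187 ± 25.02 and 416 ± 20.9 in that order. On both probes the untreated array was the dimmest, also on the normalized scale, where the brightest probe had log2 levels of 9.98 with the combination, 10.76 with dexamethasone and 9.83 in untreated cells. On that scale dexamethasone was higher than untreated by 0.93 (bead SE 0.20) on the brightest probe, just inside 2-fold, and by 1.33 (bead SE 0.10) on the other, past it. The combination was higher than untreated by 0.15 (bead SE 0.20) and by 1.04 (bead SE 0.12) on these probes, so whether ETS1 differed by 2-fold within slide 1 depends on the probe. Against dexamethasone the combination was lower on both probes after normalization, with differences of -0.78 and -0.29. Before scaling, the other probe was brighter with the combination than with dexamethasone.

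ELF1 was nearly level on the treated arrays and lower on the untreated array. Its intensities were 2319 ± 47.3 with the combination, 1868 ± 64.6 with dexamethasone and 801 ± 53.8 in untreated cells, and its log2 levels were 10.71, 10.81 and 9.91. The combination and dexamethasone were higher than untreated by 0.80 (bead SE 0.12) and 0.91 (bead SE 0.12), both within 2-fold. The treated arrays differed from each other by -0.10 (bead SE 0.06), and the sign of that difference turned under scaling to the 75th percentile (0.05).

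ERF, a repressor that ERK phosphorylation moves out of the nucleus, had intensities of 301 ± 10.8 with the combination, 392 ± 16.4 with dexamethasone and 294 ± 16.4 in untreated cells. The log2 levels were 7.10, 8.10 and 8.05. The combination differed from dexamethasone by -0.9996 (bead SE 0.13), just inside the rule, and from untreated by -0.95 (bead SE 0.16). As with EHF, the unscaled intensity of the combination was slightly above that of the untreated array. Dexamethasone and untreated differed by 0.05 (bead SE 0.15), within the bead error.

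ETV4, a PEA3 subfamily factor whose transcript follows FGF and ERK signalling, lay near the detection limit. Its brightest probe had intensities of 197 ± 8.66 with the combination, 208 ± 10.8 with dexamethasone and 146 ± 7.83 in untreated cells, where it was not detected. Dexamethasone was therefore at least 1.77-fold higher than untreated and the combination at least 1.21-fold higher, with bead SEs of 0.33 and 0.34 on the log2 scale. These bounds hold for the values as processed. Under the alternatives the dexamethasone difference lay between 0.26 and 0.84 and that of the combination between 0.00 and 0.30. The combination and dexamethasone differed by -0.55 (bead SE 0.26). Its log2 levels were 5.87, 6.42 and 5.57 in that order, close to the lowest detected value of each array. The other probe had intensities of 175 ± 7.86, 206 ± 14.6 and 137 ± 3.59 and was detected with dexamethasone alone, where it was at least 1.72-fold higher than untreated.

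**Figure D3:**
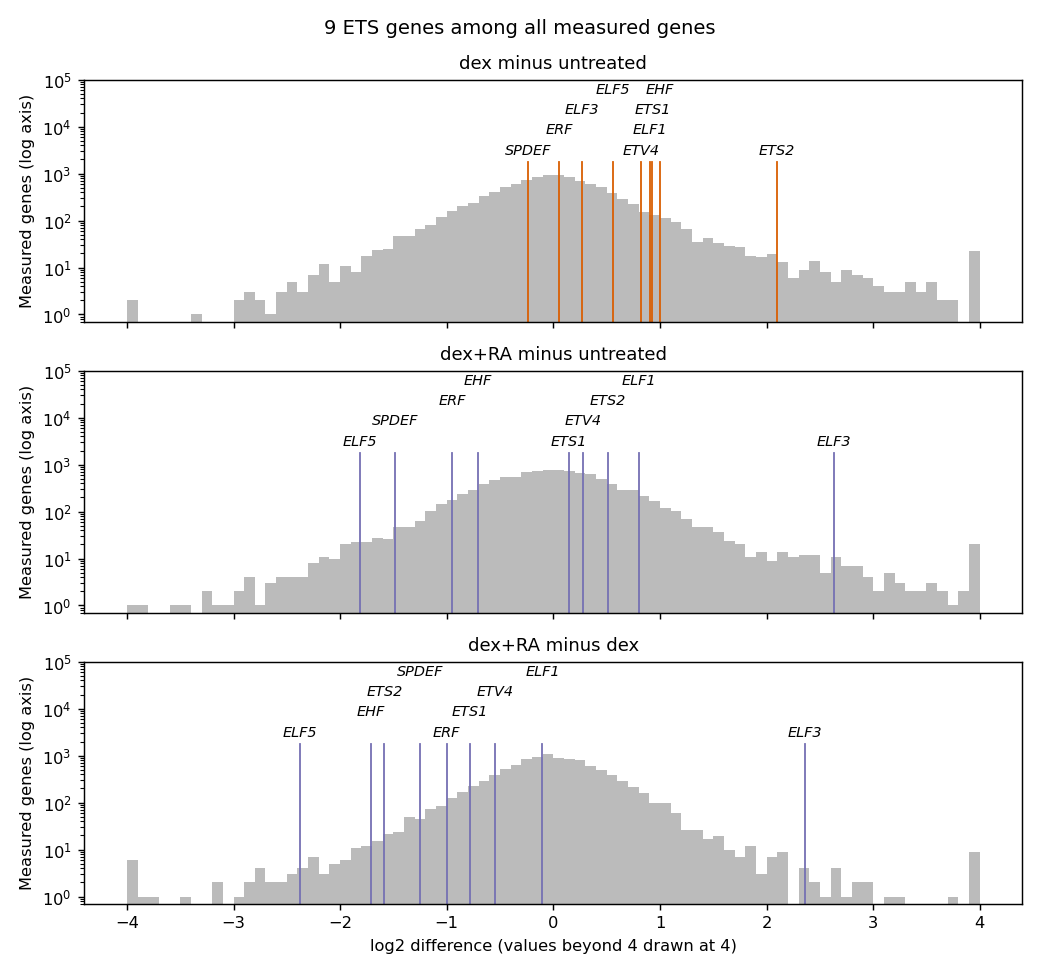
Histogram of the log2 differences of all measured genes (y axis, number of genes on a log scale) in each comparison, with vertical lines at the 9 ETS genes and values beyond 4 drawn in the outermost bars. Between the combination and dexamethasone, 8 of the 9 lie below 0, and ELF3 lies at 2.36.

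The rest of the family gave no calls. All 19 other ETS genes had a named probe, and 10 of them (ELF2, ELF4, ELK1, ELK3, ELK4, ETV3, ETV5, ETV6, GABPA and SPIB) were measured in each comparison. None was 2-fold higher or lower by its brightest probe, with medians of 0.21 for the combination against dexamethasone, 0.09 for the combination against untreated and -0.18 for dexamethasone against untreated. Over all measured genes 6.57%, 11.3% and 10.3% passed the rule in the same order. For 10 genes, a count of 0 lies near these shares. The 9 others, which include the haematopoietic and endothelial factors SPI1, FLI1 and ERG, were not detected on any array. ELF4, a relative of ELF1, was the farthest from 0, with a difference of -0.94 (bead SE 0.07) for the combination against untreated. ETV5, a PEA3 factor like ETV4, was higher with dexamethasone than untreated by 0.71 (bead SE 0.12) and with the combination by 0.43 (bead SE 0.11). A weaker ELK4 probe was 2.14-fold higher with the combination than untreated, against a difference of 0.07 on the brightest probe.

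Genes reported in the literature as ELF3 targets were followed beside ELF3 itself. Of 11, 6 were measured with the combination against dexamethasone, where 1 was higher and 0 lower (median 0.08). That gene was LCN2, encoding the iron-sequestering protein lipocalin 2, with intensities of 375 ± 12.3 on the combination array, 167 ± 5.56 on the dexamethasone array and 157 ± 5.13 on the untreated array, and it was at least 4.09-fold higher than with dexamethasone. Without background correction and in the deposited normalized table that LCN2 difference dropped inside 2-fold (lowest 0.82). Against untreated, 3 of 6 were higher with the combination (median 0.66), LCN2 by 3.02-fold, the chemokine gene CCL20 by at least 7.28-fold and the TGF-beta receptor gene TGFBR2 by 2.11-fold. With dexamethasone alone 2 of 7 were higher than untreated (median 0.07), CCL20 and TGFBR2, while ELF3 was not. Of all measured genes, 2.99% were higher between the treatments, 5.84% with the combination and 5.73% with dexamethasone than untreated. In a list this short, 1 call carries little weight.

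Of 17 reported ELF5 targets and prolactin axis genes, 9 were measured in each comparison. With dexamethasone alone 4 were higher and 3 lower than untreated (median 0.27). The prolactin receptor gene PRLR was 2.84-fold higher, the signal transducer STAT5B at least 2.85-fold, the kinase JAK2 at least 2.09-fold, and SNAI2, reported as repressed by ELF5, 6.65-fold higher. ESR1, GATA3 and FOXA1, which stand in the luminal list too, were the 3 lower genes. PRLR had intensities of 640 ± 21.9 with the combination, 1085 ± 43.7 with dexamethasone and 355 ± 11.4 in untreated cells. It was the 1 gene of this list called between the combination and dexamethasone (2.55-fold lower, median of the list 0.00), and its other detected probe was 2.28-fold lower. SNAI2 differed by 0.002 (bead SE 0.12) between the same arrays, on which ELF5 differed by -2.38, and by -0.66 on its other probe. With the combination against untreated 1 was higher, SNAI2, and 2 were lower, ESR1 and GATA3 (median -0.05). Past the rule in either direction were 77.8% of the list with dexamethasone, 33.3% with the combination and 11.1% between the treatments. Over all measured genes these shares were 10.3%, 11.3% and 6.57%.

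Of 12 reported SPDEF targets 4 were measured, and all 4 were lower than untreated both with the combination (median -1.69) and with dexamethasone alone (median -1.50). The protein disulfide isomerase gene AGR2 was 6.97-fold lower with the combination and 5.70-fold lower with dexamethasone. The trefoil factor genes TFF1 and TFF3 were 3.57-fold and 2.81-fold lower with the combination and 2.77-fold and 2.87-fold lower with dexamethasone, and the apoptosis inhibitor BIRC5 was 2.93-fold and 2.504-fold lower. Between the combination and dexamethasone none of the 4 passed the rule (median -0.26). Over all measured genes 5.43% were lower with the combination and 4.57% with dexamethasone than untreated, and 6.57% passed between the treatments. AGR2 and TFF1 stand in the luminal list too. As in the other target lists, genes were joined without regard to the reported direction of regulation.

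Reported invasion targets of ETS1 and ETV4 were mostly undetected. Of 15, 6 were measured with the combination against untreated, where 2 were higher and 0 lower (median 0.07), the endothelial cadherin gene CDH5 by at least 25.1-fold and the heparanase gene HPSE by at least 2.16-fold, though HPSE differed little on its other probe (-0.01). With dexamethasone alone 0 of 5 passed the rule (median 0.32). Between the combination and dexamethasone CDH5 was at least 25.9-fold higher, and 0 of 6 were lower (median 0.14). Of all measured genes, 5.84% were higher with the combination than untreated and 2.99% between the treatments. With dexamethasone against untreated 10.3% of all passed in either direction. Of the 15 measured ERK feedback genes, dexamethasone alone gave 3 higher and 2 lower than untreated (median 0.05). The inhibitor gene SPRY4 was 3.55-fold higher, the ERK phosphatase gene DUSP5 3.36-fold and SPRY2 2.66-fold, and IER3 and EPHA4 were 4.34-fold and 2.66-fold lower. The other SPRY4 probe was higher by at least 0.56 on the log2 scale, a bound that does not reach 2-fold. DUSP5 had the same order of arrays as ETS2, at 856 ± 40.1 with the combination, 1728 ± 63.1 with dexamethasone and 458 ± 17.2 in untreated cells, and was the 1 gene of this list called between the combination and dexamethasone (3.00-fold lower, median -0.26). With the combination against untreated 1 was higher, SPRY4, and 2 lower, EPHA4 and IER3 (median 0.37). SPRY4 differed by 1.06 there and kept its call under 3 of the 7 alternatives. The ERK list thus had 33.3% past the rule with dexamethasone, 20.0% with the combination and 6.67% between the treatments. Over all measured genes these shares were 10.3%, 11.3% and 6.57%, so the last count is at the share of all genes.

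Partners and regulators of ETS proteins were measured for 13 of 18 listed symbols, among which COP1 and RFWD2 stand for the same gene. RUNX1, which binds DNA together with ETS1, was 3.43-fold higher with the combination (1.78, bead SE 0.12) and 3.33-fold higher with dexamethasone (1.73, bead SE 0.12) than untreated. JUN, an AP-1 partner, was 2.36-fold higher with dexamethasone than untreated and 2.55-fold lower with the combination than with dexamethasone. GABPB1, the partner subunit of GABPA, was 2.29-fold lower with dexamethasone than untreated and 2.09-fold higher with the combination than with dexamethasone. Its other measured probes differed by -0.87 and -0.83 in the first comparison, both inside 2-fold, and by 0.71 and 1.16 in the second. In all, the list had 2 higher and 1 lower with dexamethasone (median 0.16), 1 higher and 0 lower with the combination against untreated (median -0.10) and 1 higher and 1 lower between the treatments (median -0.15). In that order 23.1%, 7.69% and 15.4% of the list passed, beside 10.3%, 11.3% and 6.57% of all measured genes.

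The genes nearest in pattern to ELF3 and ELF5 were found by the Euclidean distance of their differences from the untreated array, over 9253 genes detected on all 3 arrays. With 3 arrays this is a coarse description. For ELF3 the 5 nearest, at distances from 0.21 to 0.42, were SPATS2L, RHOU, the prostaglandin E synthase gene PTGES, PARP9 and the keratinocyte kinase gene RIPK4. They were higher than untreated by 2.31 to 2.76 with the combination and by 0.25 to 0.69 with dexamethasone. For ELF5 the 5 nearest, at distances from 0.25 to 0.49, were the Ras-related gene RASD1, RHOB, the acetyl-CoA synthetase gene ACSS1, the matrix protein gene EFEMP1 and S100A14. They were lower than untreated by between -2.04 and -1.41 with the combination and higher by 0.20 to 0.96 with dexamethasone.

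**Figure D4:**
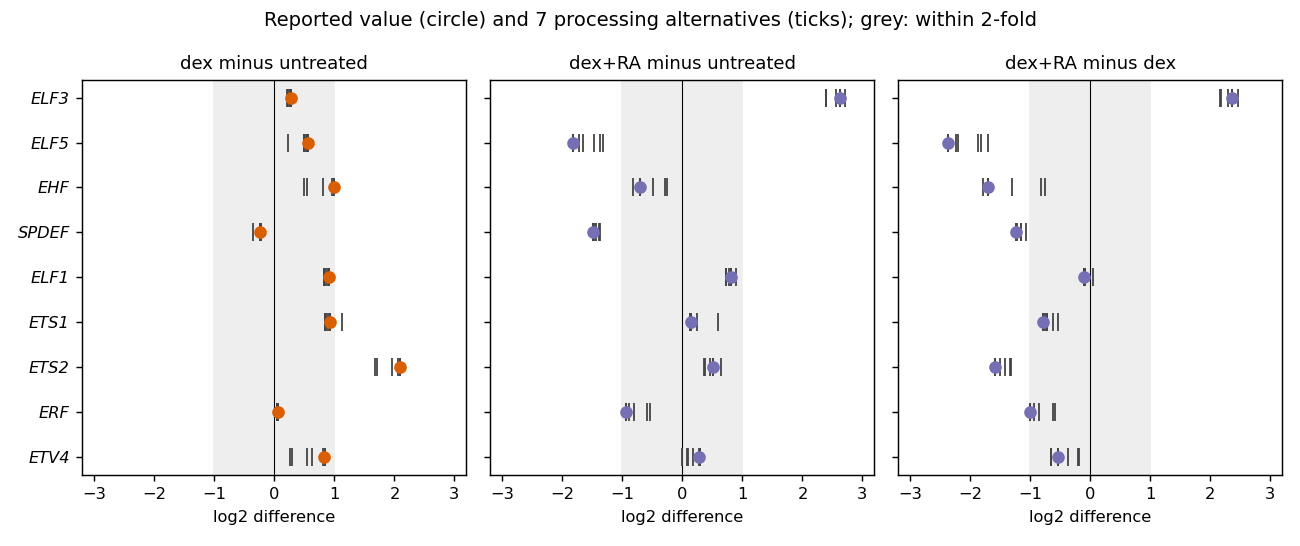
Reported log2 difference of each ETS gene (circle) and its value under each of 7 processing alternatives (ticks) in the 3 comparisons, with the range within 2-fold in grey. ELF3, ELF5, SPDEF and ETS2 keep their side of the limit in each panel, while EHF crosses it in 2 panels and ETS1 in 1.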

How the data were processed

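Total RNA of 3 HCC1937 cultures was labelled as biotinylated cRNA and read on Illumina bead arrays, 1 per group. Per the file headers, the deposited values are a mean bead intensity per probe with its standard error, a bead count and a detection p-value against negative controls. They were not scaled between arrays. The deposited second table holds intensity values that the authors normalized by a method not given in the sources used here. Its columns have medians of 137.5, 137.5 and 137.4 on the combination, dexamethasone and untreated arrays and the ranks of the bead table, so it appears quantile normalized.

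With limma 3.58.1 in R 4.3.3, normexp correction (negative controls inferred from detection p-values, offset 16), quantile normalization and log2 were applied to all probes. The offset draws low values together. Later steps used Python 3.11.15. Probes were named from the platform annotation, 30109 with 1 gene, 8 with several and 17198 unnamed here. A gene was represented by its probe with the highest mean, and every other probe of a member is given. For an undetected probe the minimum among detected probes on that array was used, unless the probe's own value was above it, so such a fold is a bound for the values as processed. The bead SE was carried to log2 from the background-corrected values. Member probes rested on 15 to 34 beads. No test was made, as each group held 1 array, and the number of arrays limits precision. The procedure was tested on simulated data, with changes beyond 2-fold planted in genes detected on all 3 arrays and above background. No change was planted near background or at the 2-fold limit, where values of EHF, ERF and ETV4 lie.

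The members and lists were chosen with earlier results of these data known. The text names all members, other ETS genes, up to 4 of the largest differences past the rule per list, 5 treatment controls and the 5 nearest patterns of ELF3 and ELF5. Where more than 4 genes of a list were called and named, as in the ELF5 and ERK lists with dexamethasone, those beyond the largest 4 were named after their values were seen. Neighbouring genes, detection of markers, LCN2, PRLR and DUSP5 intensities and values of list genes on other probes were added after values were seen. In total 8 alternatives were tried, and 7 of them were also applied to the lists, a choice made after seeing the data.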

Additional observations from a re-analysis of the deposited data

How the results depend on the processing

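No paired analysis was possible because each group held 1 array. Of the 10 member differences past 2-fold, 10 kept their sign and 8 kept their call under the 7 alternatives to background, scaling, source, filter and probe. The exceptions were both of EHF. Of the 17 within 2-fold, 15 kept their sign, ELF1 (0.05 for the combination against dexamethasone with 75th percentile scaling) and ETV4 (0.00 for the combination against untreated) being the others, and 16 kept their call, ETS1 passing it with dexamethasone by the median over probes (1.13). With dexamethasone against untreated, 1 member in place of 2 passed the rule without background correction, with an offset of 50, with 75th percentile scaling and with the deposited normalized table, since EHF dropped under it, and 5 passed a 1.5-fold rule. With the combination against untreated 6 in place of 3 passed a 1.5-fold rule. For the combination against dexamethasone the count lay between 4 and 7, beside 5 as reported.

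Over all measured genes the share past the rule, in the order combination against dexamethasone, combination against untreated and dexamethasone against untreated, was 6.57%, 11.3% and 10.3%. It was 2.43%, 4.78% and 4.45% without background correction, 2.33%, 4.47% and 4.18% with the deposited table, and 22.0%, 31.6% and 27.0% with the 1.5-fold rule. With an offset of 50 it was 4.31% in the first of these. The cause of these shifts was not tested beyond the construction of each alternative. For list genes, without background correction and with the deposited table CCL20, STAT5B, JAK2, SPRY2, SPRY4 and EPHA4 dropped inside 2-fold with dexamethasone, and TGFBR2, LCN2, ESR1, GATA3, HPSE, SPRY4, CD14, CD68 and COL1A1 did so with the combination against untreated, as did GABPB1, LCN2, CDH3 and CD14 between the treatments. EHF and ETV4 lay near background, which limits their folds.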
